A study of Mus musculus with 54 samples.

Results

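The kidneys of naturally aged mice were compared after treatment with Cmpd60, a benzamide-based inhibitor selective for the histone deacetylases HDAC1 and HDAC2, or with the vehicle alone. The comparison uses all 11 kidney libraries among the 54 of the series, 6 from Cmpd60-treated mice and 5 from vehicle-treated mice. All mice were male BL6 animals of about 20 months, housed singly on regular chow. They received daily intraperitoneal injections for 14 days, of Cmpd60 at 22.5 mg/kg in a solution of DMSO, polyethylene glycol and saline, or of that solution without the compound. Each library was made from the poly(A) RNA of bulk kidney with a kit that keeps the strand of the transcript, and is named here by the number in its title, 50 to 55 for Cmpd60 and 45 to 49 for vehicle. The groups were taken from the sample titles and source names. The treatment field of all 11 libraries gives the opposite group, and under that field every sign below would be reversed.

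Histone deacetylases remove acetyl groups from histone tails, and HDAC1 and HDAC2 do so as the catalytic subunits of repressor complexes such as NuRD, CoREST and SIN3. Blocking them raises histone acetylation and can raise or lower the transcription of a gene, directly or through other regulators. Most RNA of the kidney comes from the proximal tubule, an epithelium that reabsorbs the filtered load, secretes drugs and organic anions, oxidizes fat and conjugates foreign compounds, and that in mice differs strongly between the sexes.

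The libraries held from 25164965 to 39171083 counts on genes, and the summed depth did not separate the groups. In the smallest library, 3 counts, the upper limit that a count of 0 allows, correspond to 0.119 CPM, the unit used here for counts scaled to a fixed library size. Kidney markers were present in every library, and the 10 markers of the S1 and S2 proximal tubule summed to 15329 ± 3608 CPM in the Cmpd60 group (SD, n = 6) against 17334 ± 876 CPM in the vehicle group (SD, n = 5). Podocyte markers summed to 648 ± 55.3 and 642 ± 34.9 CPM, and endothelial markers to 679 ± 93.5 and 660 ± 53.3 CPM. Neuronal markers summed to 0.874 and 1.16 CPM, and 4 of 7 pancreatic markers were at 0 in all 11 libraries. None of 8 library measures (counts on genes, genes detected, mitochondrial and red cell shares, the share of the 10 leading genes and 3 shares of unassigned reads) differed between the groups (two-sided exact permutation test, smallest p = 0.268, adjusted p = 0.974).

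Several libraries stood apart from their own group. The lowest numbers of genes detected were 18512 in Cmpd60 library 55, 19385 in Cmpd60 library 53 and 20069 in vehicle library 49, whereas the others had from 21832 to 23062. The same 3 libraries lay at the ends of the first 3 principal components. Library 55 also held the lowest level of the proximal tubule markers, 9507 CPM against 14172 CPM or more in the other 10 libraries. At the other end, Cmpd60 library 52 was the treated library closest to the vehicle group in many of the genes below. Library numbers run in group order, and the labels do not say whether they follow an order of processing.

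**Figure D1:**
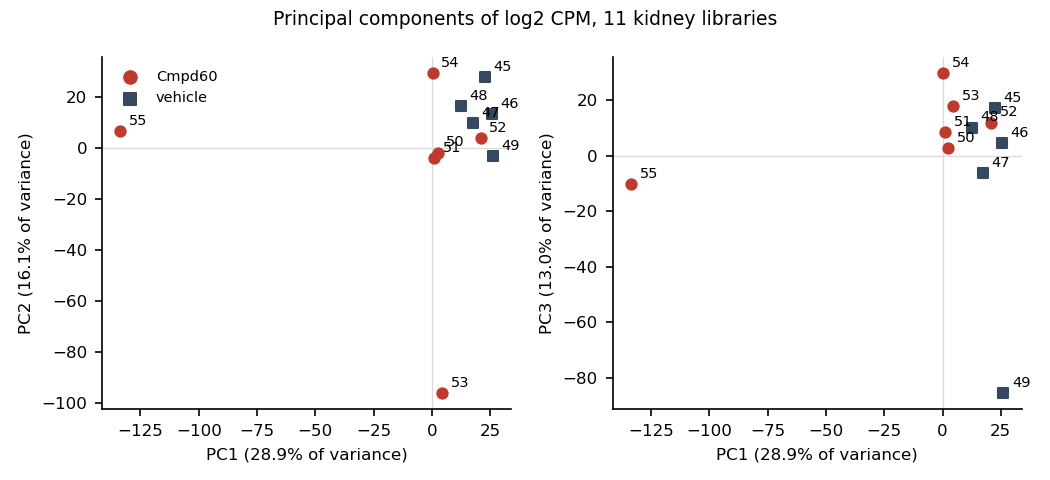
Principal components of log2 CPM over all genes tested in the 11 kidney libraries, with PC1 against PC2 on the left and PC1 against PC3 on the right. Red circles are Cmpd60 and dark squares vehicle libraries, with their numbers. Libraries 55, 53 and 49 lie far from the rest on PC1, PC2 and PC3, which hold 28.9%, 16.1% and 12.98% of the variance.

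Of 20698 genes tested with edgeR's quasi-likelihood test, 62 (0.3%) changed at an adjusted p below 0.05, of which 39 rose (0.188%) and 23 fell (0.111%) under the compound. In all 62 every Cmpd60 library lay on the same side of every vehicle library, which held for 2.3% of all genes tested (1.1% higher and 1.2% lower). At an unadjusted p below 0.01 there were 782 genes, or 3.78%. The log2 fold changes of the 62 were at least 0.46 in size, with a median size of 0.92. The call held for 16 of the 62 under each of the 19 other ways of processing or of leaving out libraries that were run, 10 higher and 6 lower. Leaving out single libraries moved the number that passed, to 20 without vehicle library 46 or 47, 28 without vehicle library 49, 31 to 33 without Cmpd60 library 50 or 51 or vehicle library 45, and 131 without Cmpd60 library 52. Of the genes named below other than Pmm1, those least stable to leaving out 1 of the 11 libraries were Ugt2b38, Serpinf2, Sdc2 and Slc12a2, which passed in 2 of 11 such fits, Abcc4, Tmigd1, Cckar, Nkain1 and Itih1 in 3, and Cyp2d22, Cgn, Tjp3, Atf5, Corin and Rarres2 in 4, with adjusted p of at most 0.16. The highest adjusted p of each came without vehicle library 45, 46 or 47. Pmm1, which was not ranked in this way, passed in 10 of the 19 alternatives. When all 34 aged libraries were fitted together, the calls of Cbr2 (adjusted p = 0.0778), 2010003K11Rik (0.07), Ptgfr (0.0797), Cckar (0.0698), Tjp3 (0.297) and Cgn (0.335) were lost. With libraries 53, 55 and 49 left out, a setting added after the data were seen, 42 genes passed, 27 of them among the 62, and all 62 kept their sign.

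**Figure D2:**
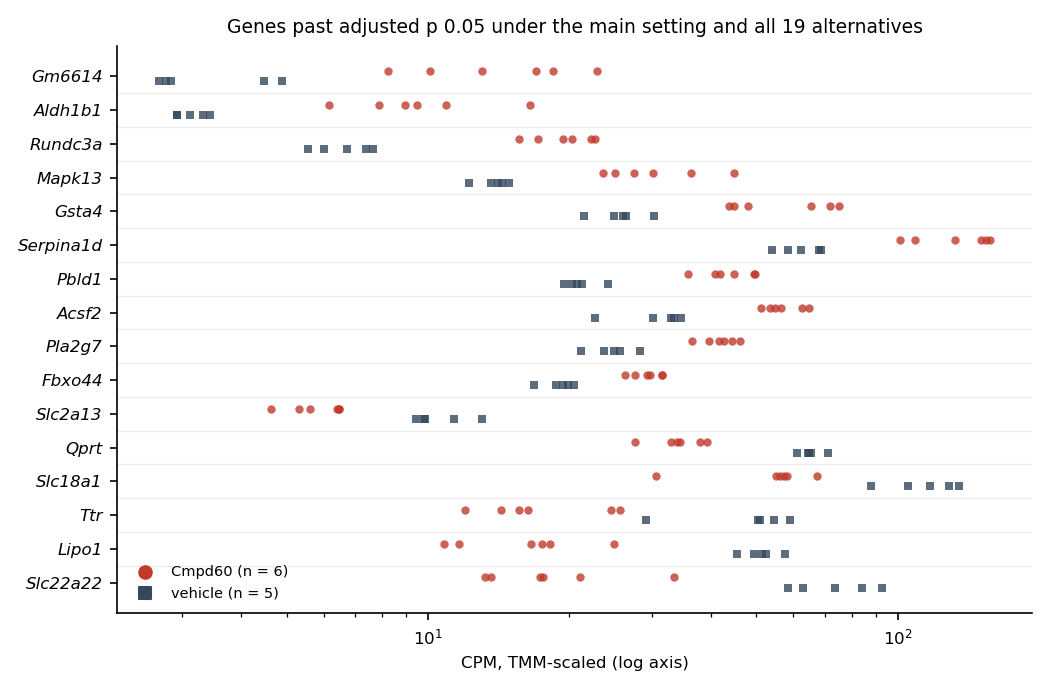
The 16 genes that passed an adjusted p of 0.05 in the main fit and in all 19 alternatives. The horizontal log axis is CPM scaled with TMM factors, and each point is a library, red circles for Cmpd60 (n = 6) and dark squares for vehicle (n = 5). In each gene the groups do not overlap, and the fold change is largest for Gm6614 among the higher and Slc22a22 among the lower genes.

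Among the genes that rose were enzymes that reduce, oxidize or conjugate reactive carbonyls and foreign compounds. Carbonyl reductase 1 (Cbr1), a cytosolic NADPH-dependent enzyme, was at 68.5, 56.6, 50.7, 78.3 and 51.5 CPM in the vehicle libraries and between 100.4 and 180.5 CPM with Cmpd60 (median 123), a log2 fold change of 1.16 (SE 0.17, adjusted p = 0.00679). All treated kidneys lay above all vehicle kidneys. Carbonyl reductase 2 (Cbr2), a mitochondrial relative, was at 2.92, 3.15, 2.19, 2.17 and 3.42 CPM with vehicle and from 5.73 to 8.05 CPM with Cmpd60 (median 6.55). It rose by a log2 fold change of 1.27 (SE 0.18, adjusted p = 0.00473). Aldh1b1, a mitochondrial aldehyde dehydrogenase that oxidizes acetaldehyde, was close to uniform in the vehicle libraries, at 3.33, 3.12, 2.92, 3.44 and 2.92 CPM. Its Cmpd60 values ran from 6.14 to 16.5 CPM (median 9.22), a log2 fold change of 1.67 (SE 0.22, adjusted p = 0.00323). The cytochrome P450 Cyp2d22 rose less, by 0.74 (SE 0.14, adjusted p = 0.0338), from 30.9 to 42.8 CPM with vehicle to 50.8 to 82.1 CPM with Cmpd60. As a comparison, the glutathione S-transferase Gsta4, which conjugates lipid aldehydes, rose by 1.17 (SE 0.15, adjusted p = 0.00323).

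The largest rise among the genes that passed was in Ugt1a10, a UDP-glucuronosyltransferase. Its vehicle values were 2.83, 2.32, 2.69, 4.62 and 1.22 CPM and its Cmpd60 values ran from 7.27 to 28.6 CPM with a median of 13.7, a log2 fold change of 2.62 (SE 0.40, adjusted p = 0.0117). The call was lost when either of 2 single libraries was left out, with an adjusted p of 0.0556 without vehicle library 46. Genes of the Ugt1a locus share their last exons and differ in the first, so the level of each is uncertain. Of its neighbors, Ugt1a1 and Ugt1a2 had log2 fold changes of 1.36 (SE 0.46, adjusted p = 0.266) and 1.82 (SE 0.52, adjusted p = 0.178) at low levels. Ugt2b38, of another locus, fell by 0.76 on the log2 scale (SE 0.14, adjusted p = 0.032), from 622, 736, 753, 648 and 692 CPM with vehicle to between 276 and 535 CPM with Cmpd60. Its paralog Ugt2b37 did not pass, with a log2 fold change of -1.17 (SE 0.26, adjusted p = 0.0852), although its groups did not overlap, and reads of the Ugt2b paralogs may be shared. Of 17 UDP-glucuronosyltransferase genes tested, 1 rose and 1 fell, and at an unadjusted p below 0.05, 5 were higher and 5 lower, against 5.71% and 5.63% of all genes.

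Membrane transporters were among the largest changes in both directions. Gm6614, a gene of the Slco organic anion transporter family that lies between Slco1a1 and Slco1a6 in the RefSeq gene order of GRCm38.p6, was at 2.67, 4.47, 2.77, 4.90 and 2.84 CPM with vehicle. With Cmpd60 it ran from 8.21 to 22.9 CPM, a log2 fold change of 2.09 (SE 0.27, adjusted p = 0.00294). Its neighbors had negative values, -1.42 (SE 0.44, adjusted p = 0.22) for Slco1a1 and -0.41 (SE 0.12, adjusted p = 0.172) for Slco1a6. The groups did not overlap in Slco1a6, with 198 to 239 CPM with vehicle and 121 to 196 CPM with Cmpd60. Reads shared between these close relatives may be lost in counting.

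Slc22a22, an organic anion transporter of the proximal tubule known to carry prostaglandins, fell most among the genes above 1 CPM that passed. It was at 58.3, 73.7, 92.4, 62.9 and 84.2 CPM with vehicle and from 13.2 to 33.4 CPM with Cmpd60 (median 17.4), a log2 fold change of -1.94 (SE 0.21, adjusted p = 0.000652). Library 52 gave the highest treated value and library 55 the lowest, and both lay below all vehicle kidneys. Slc18a1, a vesicular monoamine transporter, fell from 105, 117, 135, 87.7 and 128 CPM to between 30.6 and 67.4 CPM, a log2 fold change of -1.09 (SE 0.16, adjusted p = 0.0104). Slc2a13, a proton-coupled inositol transporter, fell by 0.88 on the log2 scale (SE 0.14, adjusted p = 0.0138), and the sodium-potassium-chloride cotransporter Slc12a2 by 0.51 (SE 0.10, adjusted p = 0.0481). The efflux pump Abcc4, which exports prostaglandins, cyclic nucleotides and drugs at the apical membrane, rose by 0.48 (SE 0.09, adjusted p = 0.0384), from 94.9, 99.0, 103, 109.5 and 91.2 CPM to between 124 and 169 CPM. The nucleoside carrier Slc29a1 rose by 0.57 (SE 0.09, adjusted p = 0.016). By list, 1 of 22 Slc22 genes fell and none rose, 1 of 12 Slco genes rose, and 1 of 13 efflux transporters rose, against 0.188% of all genes that rose and 0.111% that fell. Of the Slco genes, 1 was higher and 4 were lower (33.3%) at an unadjusted p below 0.05, against 5.71% and 5.63% of all genes, with a list median of -0.19.

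Single genes of NAD and fat metabolism passed as well. Qprt makes nicotinic acid mononucleotide from quinolinic acid, the step that leads from tryptophan to NAD. It had a tight spread in both groups, at 64.5, 61.1, 64.6, 65.3 and 71.2 CPM with vehicle and from 27.5 to 39.2 CPM with Cmpd60 (median 34.1). Qprt fell by 0.93 on the log2 scale (SE 0.09, adjusted p = 0.000299), and here library 55 held the highest treated value. Acsf2, a mitochondrial acyl-CoA synthetase, rose by 0.90 (SE 0.11, adjusted p = 0.00199), from 30.2, 33.0, 33.4, 34.6 and 22.7 CPM to between 51.1 and 64.8 CPM.

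The most certain rise was in Rundc3a, a RUN domain protein known mainly from neurons. Its vehicle values were 6.00, 5.54, 6.73, 7.62 and 7.37 CPM and its Cmpd60 values 15.7 to 22.6 CPM (median 19.8), a log2 fold change of 1.56 (SE 0.13, adjusted p = 0.000108). Mapk13, the delta form of p38 kinase, was at 13.6, 14.3, 14.1, 12.2 and 14.9 CPM with vehicle and from 23.6 to 44.8 CPM with Cmpd60. It rose by 1.17 (SE 0.15, adjusted p = 0.00294). Reep6, a protein that shapes the endoplasmic reticulum, went from 77.5, 84.1, 96.8, 85.9 and 83.2 CPM to between 126 and 282 CPM, a log2 fold change of 1.21 (SE 0.19, adjusted p = 0.014). Pdilt, a protein disulfide isomerase-like chaperone described in testis, rose by 1.09 (SE 0.17, adjusted p = 0.0132) at 2.65 to 4.27 CPM with vehicle and 6.17 to 9.93 CPM with Cmpd60. Its gene lies beside Umod, the uromodulin gene of the thick ascending limb, which had a log2 fold change of 0.01 (SE 0.15, adjusted p = 0.981). Pbld1 rose by 1.04 (SE 0.10, adjusted p = 0.000299), and the stress-responsive transcription factor Atf5 by 0.68 (SE 0.12, adjusted p = 0.0264). The ubiquitin ligase subunit Fbxo44 rose by 0.62 (SE 0.08, adjusted p = 0.00454), and the synaptic vesicle protein Sv2a by 0.75 (SE 0.13, adjusted p = 0.0197). Of less characterized genes, 2010003K11Rik rose by 1.55 (SE 0.25, adjusted p = 0.0166) and BC089597 by 1.13 (SE 0.18, adjusted p = 0.016).

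Genes of secreted plasma proteins changed in both directions. Serpina1d, an alpha-1 antitrypsin paralog, was at 53.9, 68.6, 68.1, 58.3 and 62.3 CPM with vehicle and from 101 to 158 CPM with Cmpd60 (median 141.6). Its log2 fold change was 1.11 (SE 0.13, adjusted p = 0.000996), and reads can be shared with Serpina1a, which had 0.70 (SE 0.23, adjusted p = 0.253). Pla2g7, which hydrolyzes platelet-activating factor, rose by 0.76 (SE 0.09, adjusted p = 0.00175), and Rarres2, the gene of the adipokine chemerin, by 0.91 (SE 0.17, adjusted p = 0.032). Ttr, the thyroxine and retinol carrier transthyretin, was at 54.6, 50.9, 50.5, 58.9 and 29.2 CPM with vehicle and from 12.0 to 25.7 CPM with Cmpd60. Ttr fell by 1.43 on the log2 scale (SE 0.21, adjusted p = 0.00679), with vehicle library 49 nearest to the treated kidneys. Hrg, the histidine-rich glycoprotein, was at 5.32, 5.68, 6.54, 4.15 and 7.50 CPM with vehicle and from 0.402 to 2.76 CPM with Cmpd60. Its log2 fold change of -1.92 (SE 0.33, adjusted p = 0.0197) was the second largest decrease among the genes above 1 CPM that passed. Serpinf2, the inhibitor of plasmin, fell by 0.93 on the log2 scale (SE 0.18, adjusted p = 0.0461), and Itih1, a heavy chain of the inter-alpha-trypsin inhibitor, by 1.18 (SE 0.22, adjusted p = 0.0338). The fibrin-stabilizing factor subunit F13b was below all vehicle libraries in all treated ones but did not pass, with a log2 fold change of -0.94 (SE 0.25, adjusted p = 0.14). Of 34 genes of coagulation and plasma protease inhibitors, 1 rose and 2 fell, and 11 were higher and 7 lower at an unadjusted p below 0.05, against 5.71% and 5.63% of all genes. Markers of liver, the main source of such proteins, summed to 96.2 ± 25.3 CPM (SD, n = 6) and 93.6 ± 13.4 CPM (SD, n = 5). Ttr held the most counts, and none of the 8 was at 0 throughout. These sums include Ttr itself, at a mean of 18.1 CPM with Cmpd60 and 48.8 CPM with vehicle. The other markers together therefore had a higher mean sum with Cmpd60. Of the 8, Ttr alone passed, and 4 were higher and 1 lower at an unadjusted p below 0.05, against 5.71% and 5.63% of all genes, with a median of 0.87. Their part in these values was not tested.

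Further genes that fell were of mixed function. Corin, the protease that activates natriuretic peptides, was at 4.29, 4.78, 7.73, 5.85 and 11.3 CPM with vehicle and from 0.851 to 3.54 CPM with Cmpd60, a log2 fold change of -1.72 (SE 0.32, adjusted p = 0.0338). The lipase gene Lipo1, one of a cluster of near-identical copies whose reads may be shared, fell from 51.4, 49.4, 57.7, 45.4 and 52.5 CPM to between 10.8 and 24.9 CPM, by 1.63 on the log2 scale (SE 0.17, adjusted p = 0.000597). Another copy, Lipo2, also passed, at 0.474 to 0.962 CPM with vehicle and at most 0.0778 CPM with Cmpd60. Its log2 fold change was -4.81 (SE 0.77, adjusted p = 0.0145), at levels near the limit of counting. Nkain1, which interacts with the sodium pump, fell by 1.10 (SE 0.20, adjusted p = 0.032). The receptors for prostaglandin F, Ptgfr, and for cholecystokinin, Cckar, fell by 0.51 (SE 0.09, adjusted p = 0.0197) and 0.75 (SE 0.14, adjusted p = 0.0375). The heparan sulfate proteoglycan Sdc2 and the tubular adhesion molecule Tmigd1 fell by 0.52 (SE 0.10, adjusted p = 0.0338) and 0.54 (SE 0.10, adjusted p = 0.0293).

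Programs were then described by 28 lists of genes, by their counts and medians beside those of all genes tested. Of these lists, 9 held a gene that changed. The lists share genes, and 12 of the 62 genes are in any of them. Lists and members were chosen with earlier results of these data known, so their counts are a description and not a test. In bulk tissue, fewer cells of a type and less RNA per cell cannot be told apart.

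**Figure D3:**
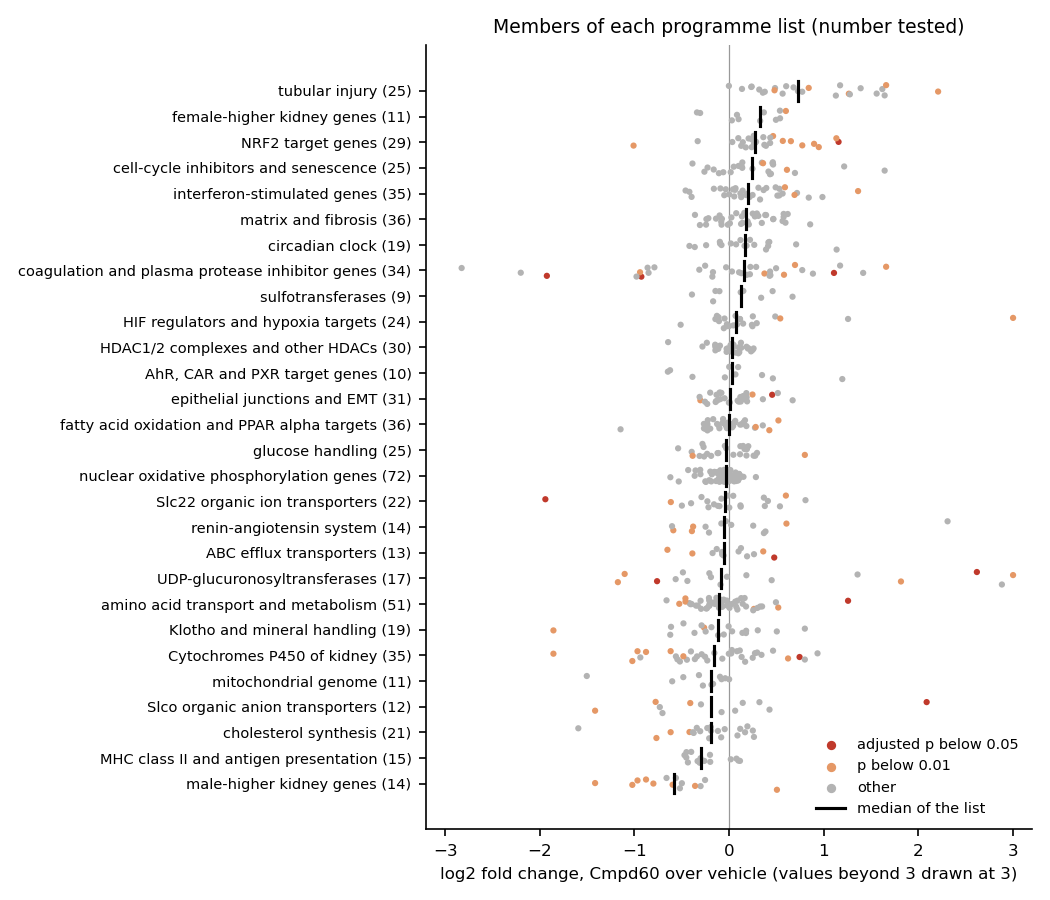
Log2 fold change of Cmpd60 over vehicle for each tested member of the 28 lists, with the number tested in parentheses. Points are genes, red at an adjusted p below 0.05, orange at an unadjusted p below 0.01 and gray otherwise, values beyond 3 are drawn at 3, and black bars are list medians. The medians run from -0.58 in genes higher in male kidney to 0.73 in tubular injury genes, and most red points lie singly in their lists.

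NRF2 is the transcription factor of the oxidative stress response. It is held in the cytoplasm by KEAP1, is released by electrophiles, and binds antioxidant response elements near genes of NADPH supply, glutathione and thioredoxin metabolism, iron storage and detoxification. Of 29 targets tested, 27 had positive and 2 negative log2 fold changes, with a median of 0.27 against 0.00 over all genes. Cbr1 was the only target that passed. At an unadjusted p below 0.01, 8 were higher and 1 lower, against 1.81% and 1.97% of all genes. Nqo1, the quinone reductase often used as a readout of the pathway, was at 67.7, 58.2, 80.5, 79.3 and 58.2 CPM with vehicle and from 85.9 to 204 CPM with Cmpd60. Its groups did not overlap, with a log2 fold change of 0.95 (SE 0.21, adjusted p = 0.0831). G6pdx, which supplies NADPH through the pentose phosphate pathway, was at 39.2 to 44.1 CPM with vehicle and 45.4 to 68.4 CPM with Cmpd60 (log2 fold change of 0.46, SE 0.10, adjusted p = 0.0755). Cbr3, a paralog that lies close to Cbr1, had a log2 fold change of 1.13 (SE 0.26, adjusted p = 0.091). The ferritin light chain Ftl1 had 0.57 (SE 0.16, adjusted p = 0.163) and the epoxide hydrolase Ephx1 0.65 (SE 0.18, adjusted p = 0.1513). The rate-limiting glutathione synthesis subunit Gclm and the thioredoxin reductase Txnrd1 had 0.13 (SE 0.13, adjusted p = 0.76) and 0.15 (SE 0.12, adjusted p = 0.695). The carboxylesterases of the list went apart, with 0.77 (SE 0.18, adjusted p = 0.0924) for Ces2e and -1.01 (SE 0.24, adjusted p = 0.108) for Ces2g. Without libraries 53, 55 and 49, a setting added after the data were seen, 10 targets were higher at an unadjusted p below 0.01. The treated libraries were uneven. The median target lay 0.54 above the vehicle mean on the log2 scale in library 50, the highest, and 0.076 above it in library 54, the lowest. In vehicle library 47 it lay 0.085 above.

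Antioxidant response elements contain the core TGACNNNGC, where N is any base. Stretches around it are printed here to show its letters in promoters of the list, and in that of Abcc4, which rose and is not in the list. RefSeq promoters of GRCm38.p6 (250 bases before to 50 after a start site) were matched for 24 of the 29 targets, and 8 of these (33.3%) held the core on either strand. The core stood in the promoters of 16.7% of all tested genes with such a sequence, in 5 of 29 genes that rose (17.2%) and in 1 of 14 that fell (7.14%). A match is a description of letters and not a binding site. Below are stretches with the core before the start site, 5′ to 3′ on the strand of the gene, with the core in capitals, which reads GCNNNGTCA where it lies on the opposite strand. G6pdx and Mgst1 had log2 fold changes of 0.46 and 0.90, Prdx1 had 0.27 (SE 0.12, adjusted p = 0.394), and Txnrd1 and Gclm had 0.15 and 0.13. Among others, the core was also found, and is not printed, for the target Me1, which had -0.33 (SE 0.16, adjusted p = 0.442), and for Qprt, which fell.
Abcc4 (chr14:118676932-118676975, minus strand): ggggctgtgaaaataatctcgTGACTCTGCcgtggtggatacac
Abcc4, second start site (chr14:118706220-118706265, minus strand): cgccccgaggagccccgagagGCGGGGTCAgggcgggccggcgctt
G6pdx (chrX:74428908-74428958, minus strand): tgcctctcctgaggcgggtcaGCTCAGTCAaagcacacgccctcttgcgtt
Mgst1 (chr6:138140450-138140500, plus strand): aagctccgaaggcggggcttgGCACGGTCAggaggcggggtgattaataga
Prdx1 (chr4:116685445-116685495, plus strand): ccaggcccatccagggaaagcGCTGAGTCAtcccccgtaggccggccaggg
Txnrd1 (chr10:82859093-82859143, plus strand): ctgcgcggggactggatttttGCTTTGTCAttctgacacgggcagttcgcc
Gclm (chr3:122245402-122245452, plus strand): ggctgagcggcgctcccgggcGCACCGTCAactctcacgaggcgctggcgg

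The mouse kidney differs between the sexes mainly in the proximal tubule, where androgens keep a set of genes higher in males. Of 14 such genes tested, none passed the adjusted threshold. Their log2 fold changes were negative for 13 of 14, with a median of -0.58, and 11 were lower at an unadjusted p below 0.05, against 5.63% of all genes, while 1 was higher. Kap, the kidney androgen-regulated protein, was at 8217, 7968, 12089, 8141 and 8494 CPM with vehicle and from 3034 to 6303 CPM with Cmpd60 (median 5399). The groups did not overlap, with a log2 fold change of -0.80 (SE 0.18, adjusted p = 0.0924). Cyp7b1, an oxysterol hydroxylase, ran from 157 to 196 CPM with vehicle and from 43.6 to 139.8 CPM with Cmpd60, also without overlap (log2 fold change of -1.02, SE 0.25, adjusted p = 0.108). Cyp2j13 and the fatty acid omega-hydroxylase Cyp4a12a had -0.88 (SE 0.21, adjusted p = 0.0998) and -0.97 (SE 0.31, adjusted p = 0.23). The exception was Hsd11b1, which reactivates glucocorticoids, at 0.51 (SE 0.16, adjusted p = 0.24). Of 11 genes higher in female kidney, 9 had positive log2 fold changes with a median of 0.33, and 3 were higher at an unadjusted p below 0.05, against 5.71% of all genes, or 1 without vehicle library 45, 47 or 49. The libraries were uneven. The median member lay 1.41 below the vehicle mean on the log2 scale in library 55, the lowest, and 0.05 below it in library 52. The 10 proximal tubule S1 and S2 markers, none of which passed, had negative values for 9 with a median of -0.26, and lay 0.94 below in library 55. The 8 markers of the S3 segment share Cyp7b1, Slc7a13 and Slc22a30 with the male list. Of these markers, 4 were lower and 1 higher at an unadjusted p below 0.05, against 5.63% and 5.71% of all genes. Their summed level was 3820 ± 893 CPM (SD, n = 6) and 4705 ± 718 CPM (SD, n = 5), with the most counts in Atp11a. Their part in the values of the male list was not tested. Without libraries 53, 55 and 49 the median of the male list was -0.39, and 8 members were lower at an unadjusted p below 0.05.

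**Figure D4:**
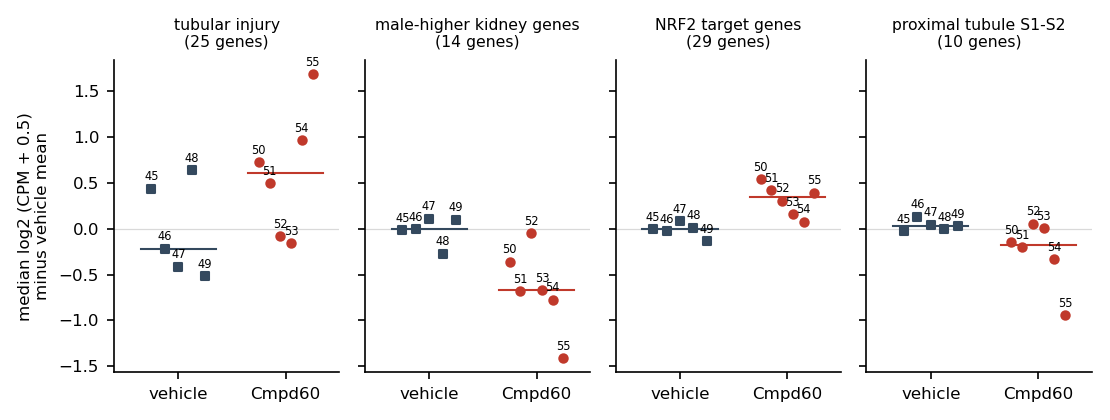
Median over the members of 4 lists of log2 (CPM + 0.5) minus the mean of the vehicle libraries, for each library by its number. Squares are vehicle and circles Cmpd60 libraries, and horizontal lines are group medians. Library 55 is highest for tubular injury genes at 1.69 and lowest for male-higher genes and proximal tubule markers, whereas for NRF2 targets all 6 Cmpd60 libraries lie above 0, as do vehicle libraries 47 and 48, and vehicle library 47 lies above Cmpd60 library 54.

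Tubular injury genes, which are low in healthy tubules and induced in damaged or regenerating ones, had a median log2 fold change of 0.73, and 24 of 25 tested were positive, yet none passed the adjusted threshold. Lcn2, the injury marker lipocalin 2, was at 30.6, 17.2, 11.2, 40.3 and 14.9 CPM with vehicle and from 16.4 to 295 CPM with Cmpd60 (log2 fold change of 2.21, SE 0.63, adjusted p = 0.183). Havcr1, which encodes the kidney injury molecule, was at 66.3, 20.8, 16.6, 129 and 20.97 CPM with vehicle and from 9.51 to 582 CPM with Cmpd60 (log2 fold change of 1.62, SE 0.84, adjusted p = 0.488, or 0.49 with an adjusted p of 0.859 without library 55). In both genes library 55 was highest and library 53 lowest of the treated kidneys, and the groups overlapped. The keratin Krt18 overlapped less, with 17.4 to 35.2 CPM with vehicle and 34.2 to 85.3 CPM with Cmpd60 (log2 fold change of 0.84, SE 0.23, adjusted p = 0.156). Haptoglobin (Hp) had 1.27 (SE 0.32, adjusted p = 0.125) and Prom1 0.48 (SE 0.13, adjusted p = 0.14). Egf, a distal tubule gene that drops in injured kidneys, was at 1786, 2046, 1976, 1773 and 2414 CPM with vehicle and between 297 and 1701 CPM with Cmpd60 (log2 fold change of -0.96, SE 0.32, adjusted p = 0.262). At an unadjusted p below 0.05, 11 of 25 injury genes were higher, against 5.71% of all genes. Without Cmpd60 library 55 there were 5, with a median of 0.49, without vehicle library 46 or 47 there were 7, and without Cmpd60 library 53 there were 17.

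Of 35 cytochromes P450, Cyp2d22 alone rose and none fell, with 3 higher and 11 lower at an unadjusted p below 0.05, against 5.71% and 5.63% of all genes. Several of those lower are also in the male list. Cyp27b1, the enzyme that makes active vitamin D, was at 30.1, 38.4, 28.8, 15.3 and 17.4 CPM with vehicle and from 2.36 to 14.4 CPM with Cmpd60. All treated values lay below all vehicle values, with a log2 fold change of -1.86 (SE 0.40, adjusted p = 0.0792). In the list of Klotho and mineral handling, none of 19 tested genes passed. At an unadjusted p below 0.05, 0 were higher and 3 lower (15.8%), against 5.71% and 5.63% of all genes. The phosphate transporter Slc34a1 had -0.48 (SE 0.19, adjusted p = 0.359) and the co-receptor gene Kl -0.37 (SE 0.18, adjusted p = 0.464). The 14 tested genes of the renin-angiotensin system, which sets blood pressure and salt balance, did not pass either. Of these, 2 were higher (14.3%) and 4 lower (28.6%) at an unadjusted p below 0.05, against 5.71% and 5.63% of all genes. Angiotensinogen (Agt) ran from 64.3 to 102 CPM with vehicle and from 104 to 151.3 CPM with Cmpd60, without overlap (log2 fold change of 0.61, SE 0.14, adjusted p = 0.094). The receptor gene Agtr1a had -0.39 (SE 0.10, adjusted p = 0.143) and the converting enzyme Ace -0.59 (SE 0.18, adjusted p = 0.22).

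Genes of epithelial junctions were examined because the loss of junctions marks epithelial-mesenchymal transition. Tjp3, the gene of the tight junction protein ZO-3, rose by 0.46 (SE 0.08, adjusted p = 0.0265), from 21.3, 20.5, 20.5, 18.8 and 19.5 CPM to between 25.7 and 30.5 CPM, and was the only 1 of 31 list members to pass. The list had a median of 0.01, with 16 positive and 15 negative members, 4 higher (12.9%) and 3 lower (9.68%) at an unadjusted p below 0.05, against 5.71% and 5.63% of all genes. Cingulin (Cgn), a tight junction plaque protein outside the list, rose by 0.52 (SE 0.09, adjusted p = 0.0263), from 38.2 to 50.0 CPM to 53.9 to 66.1 CPM. None of 36 matrix and fibrosis genes passed, with 25 positive and a median of 0.18. At an unadjusted p below 0.05, 4 were higher (11.1%) and 2 lower (5.56%), against 5.71% and 5.63% of all genes. Of 30 genes of the HDAC1 and HDAC2 complexes and of other histone deacetylases, none passed. Hdac1 and Hdac2, the targets of the compound, had log2 fold changes of 0.20 (SE 0.08, adjusted p = 0.39) and 0.03 (SE 0.10, adjusted p = 0.937).

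Of 72 nuclear genes of oxidative phosphorylation, none passed and 1 had an unadjusted p below 0.05, against 11.3% of all genes, with a median of -0.03. Of 36 genes of fat oxidation and PPAR alpha targets none passed, with a median of 0.00. At an unadjusted p below 0.01, 3 were higher (8.33%) and none lower, against 1.81% and 1.97% of all genes. At an unadjusted p below 0.05, 3 were higher (8.33%) and 1 lower (2.78%), against 5.71% and 5.63% of all genes. Plin2 was at 0.52 (SE 0.13, adjusted p = 0.128) and Hadha at 0.28 (SE 0.09, adjusted p = 0.227). Of 25 glucose genes, the fructose bisphosphatase Fbp2 came nearest, at 0.80 (SE 0.16, adjusted p = 0.0639). Cholesterol synthesis genes had a median of -0.19 over 21, and none passed. At an unadjusted p below 0.05, 1 was higher and 5 were lower (23.8%), against 5.71% and 5.63% of all genes. The groups did not overlap in 3 of 21, against 1.2% of all genes in that direction, which were Nsdhl (-0.42, SE 0.10, adjusted p = 0.101), Cyp51 (-0.62, SE 0.19, adjusted p = 0.218) and Dhcr7 (-0.38, SE 0.13, adjusted p = 0.272). Clock, senescence and sulfotransferase lists and the genes induced by the AhR, CAR and PXR receptors held no gene that passed.

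Immune lists held no gene that passed. B and plasma cell markers had negative log2 fold changes for 7 of 8, with a median of -0.92, and 5 were lower at an unadjusted p below 0.05, against 5.63% of all genes. That count was 0 without vehicle library 45, in which the markers summed to 1949 CPM against 227 to 679 CPM in the other vehicle and 141 to 521 CPM in the Cmpd60 libraries, with the most counts in Ighm. Interferon-stimulated genes had a median of 0.20 over 35, and 7 were higher at an unadjusted p below 0.05, against 5.71% of all genes, with 13 without Cmpd60 library 51 and 1 without libraries 53, 55 and 49. Oas2 and Ifit1 had 1.36 (SE 0.40, adjusted p = 0.187) and 0.69 (SE 0.19, adjusted p = 0.171). A list of antigen presentation genes, mostly of MHC class II with a few of class I, had a median of -0.30 over 15. Among 24 regulators and targets of HIF, the hypoxia factor, none passed, and 8 were higher at an unadjusted p below 0.05, against 5.71% of all genes, or 4 without library 51. Epo, which encodes erythropoietin, had the largest value of the list, 4.77 (SE 1.15, adjusted p = 0.108), with 0.187, 0.0346, 0.115, 0.079 and 0 CPM in the vehicle libraries, most of them at or near the limit of 3 counts. The Cmpd60 libraries 50 to 55 were at 0.987, 10.4, 0.272, 1.63, 0.142 and 0.637 CPM, so that all but library 54 lay above every vehicle library. Over the 18 alternatives that gave Epo a value, its log2 fold change ran from 3.10 to 5.36.

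To see whether the kidney changes were shared, the 34 aged libraries of kidney, brain (12) and heart (11) were fitted together and the Cmpd60 effect was compared between tissues. Over 27105 genes, the effect differed at an adjusted p below 0.05 between kidney and brain for 24 genes (0.0885%) and between kidney and heart for 95 (0.35%). Of the 62 kidney genes, 37 were at 1 CPM or more in vehicle brain and 36 in vehicle heart, and the effect differed for 10 and 16 of these. Since the 62 were chosen for their kidney effect, these counts are a description. The difference passed against both tissues for Cbr1, Aldh1b1, Reep6, Lipo1, Gsta4 and Gstp1. Cbr1 had log2 fold changes of 1.16 (SE 0.12) in kidney, -0.07 (SE 0.11) in brain and -0.21 (SE 0.12) in heart. Aldh1b1 had 1.67 (SE 0.16), 0.07 (SE 0.15) and 0.29 (SE 0.14), and Reep6 1.21 (SE 0.16), 0.11 (SE 0.17) and -0.44 (SE 0.20). Rundc3a, at 222 CPM in vehicle brain, differed between kidney and brain, where it had 0.10 (SE 0.12, adjusted p of the difference 0.00011). Corin, at 452 CPM in vehicle heart, had 0.24 (SE 0.17) there (adjusted p of the difference 0.000213). Acsf2 was positive in all 3 tissues, with 0.90 (SE 0.09) in kidney, 0.38 (SE 0.09) in brain and 0.33 (SE 0.09) in heart. Only Fbxo44, Sv2a and Pmm1 of the 36 genes present in heart passed there on their own, with log2 fold changes of 0.49, 0.82 and 0.46.

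**Figure D5:**
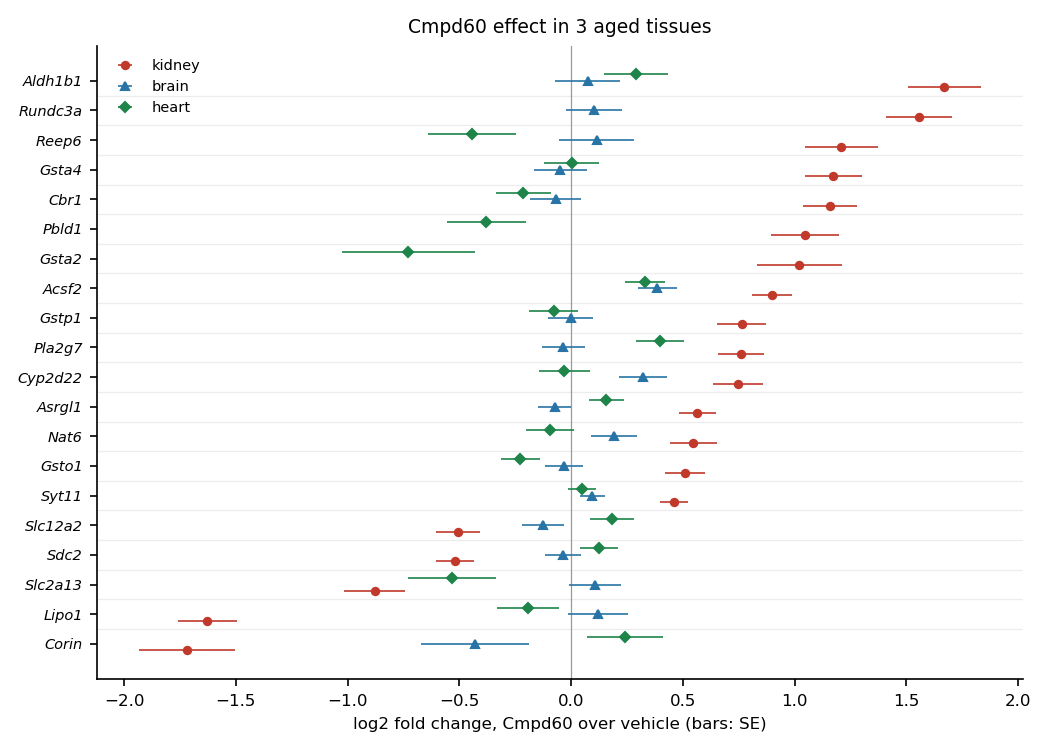
Log2 fold change of Cmpd60 over vehicle in kidney (circles), brain (triangles) and heart (diamonds), from the joint fit of 34 libraries, with standard errors as bars. Shown are the genes changed in kidney whose effect differed from brain or heart at an adjusted p below 0.05, and tissues below 1 CPM in vehicle are left out. Kidney points lie farthest from 0 in all genes, and most brain and heart points lie within 0.5 of it. The genes were chosen for a kidney effect that differed from another tissue, so this pattern is favored by the choice.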

How the data were processed

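RNA of 11 kidneys was sequenced. The authors trimmed reads with Trimmomatic 0.32, aligned them with HISAT2 2.1.0 and counted them by strand on Ensembl genes with HTSeq 0.11.0, per the labels and methods, and deposited raw counts of 54232 genes per library (genome build not given in the sources used here). The 5 summary lines, which held 16.6% to 20.8% of reads, were dropped. Reads that fit several genes were lost, which lowers paralogs.

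Genes were kept if 3 or more libraries had over 2 counts, normalized by TMM and tested with edgeR 4.0.16 (quasi-likelihood, Benjamini-Hochberg) in R 4.3.3. CPM is scaled by TMM. The 34 aged libraries were fitted together for tissue differences, as if from separate mice. On simulated kidney counts, 80 of 100 genes changed by a log2 of 1 and 93 of 100 changed by 2 were recovered, with 9 false calls among 20150 genes. The changed genes were drawn from those at a mean of 1 CPM or more. Each gene was simulated on its own, so shifts that many genes of a library share were absent. Alternatives used DESeq2 1.42.0, limma 3.58.1 (voom), other filters and scaling, and each library left out.

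Named genes were taken from the 15 largest changes in each direction among called genes without overlap at 1 CPM or more, and list members that passed or had the smallest p, besides a few chosen after their values were seen. Members and lists were chosen with earlier results of these data known. No source says that replicates were processed apart, so p-values measure the spread between these samples. Reads carried no molecular identifiers, so floors cover counting error only. Some results are not reported here.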

Additional observations from a re-analysis of the deposited data

Results flagged for a closer look

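In 198 groups of 5 or 6 libraries, 16 held a library far from the others of its group by Dixon's test at the 95% level, where chance gives about 5%. In Cmpd60 library 55, Havcr1 at 582 CPM, Krt18 at 85.3 CPM and Hdac1 at 74.8 CPM stood above, and Slc18a1 at 30.6 CPM and Dhcr7 at 7.61 CPM below, the other treated kidneys. In Cmpd60 library 52, Cyp2j13 at 294 CPM was high, inside the vehicle range, and Sdc2 at 123 CPM was high, next to that range. Cmpd60 library 51 was low in Nkain1, at 1.72 CPM, and high in Epo, at 10.4 CPM. Vehicle library 47 was high in Kap (12089 CPM) and Ifit1 (14.2 CPM), low in Hadha (286 CPM), and held the largest share of reads not assigned to a gene, 20.8%. Vehicle library 48 was low in Cyp4a12a, at 98.6 CPM, and high in Ptgfr, at 54.9 CPM, and vehicle library 49 was low in Ttr, at 29.2 CPM.

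The response to Cmpd60 differed between kidney and another tissue in 23 tests on the genes named that were at 1 CPM or more in the vehicle libraries of the other tissue, by edgeR's test of the difference over all genes (adjusted p below 0.05). The labels do not say which tissues came from 1 mouse, and the libraries were fitted as independent. Against brain, the log2 fold change in kidney exceeded that in brain by 1.10 for Reep6, 1.23 for Cbr1, 1.22 for Gsta4, 0.80 for Pla2g7, 0.77 for Gstp1, 1.45 for Rundc3a and 1.60 for Aldh1b1. The difference was -1.75 for Lipo1 and -0.99 for Slc2a13. Against heart, kidney exceeded by 1.65 for Reep6, 1.37 for Cbr1, 0.78 for Cyp2d22, 0.57 for Acsf2, 1.17 for Gsta4, 0.84 for Gstp1, 1.43 for Pbld1 and 1.38 for Aldh1b1. For Fbp2 and Cbr3, which did not pass in kidney alone, it exceeded by 1.05 and 1.40. The difference from heart was -0.64 for Sdc2, -0.69 for Slc12a2, -1.43 for Lipo1 and -1.96 for Corin.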

How the results depend on the processing

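All 62 genes kept their sign under the 19 alternatives. Their number depended on the processing, with 62 in the main fit, 429 with DESeq2, 94 without a filter beyond 1 count and 552 when all 34 aged libraries were fitted together, and 20 to 131 when single libraries were left out. At an unadjusted p below 0.01 there were 782 genes, 1738 with all 34 aged libraries and 524 to 1044 with single libraries left out. The share of higher calls was 62.9%, but 46.7% with all 34 libraries. The 24 genes that differed between kidney and brain became 58 with limma-voom and 15 to 94 with single libraries left out, and the 95 between kidney and heart became 60 and 59 to 180. Limma-voom, DESeq2 size factors, library totals without TMM and a minimum of 10 counts in 5 libraries gave 70, 63, 79 and 65 kidney genes. Without the 3 libraries with the fewest genes detected, chosen after seeing the data, 42 passed. The cause of these shifts was not tested. No paired analysis was possible because the kidney groups share no replicate numbers. Genes near 3 counts in a library, such as Epo, are limited by depth.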

Other observations

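A pair of small lists was drawn up after the values of Qprt and Slc22a22 had been seen, so their counts and shares are a description and not a test. Of 13 tested genes of the kynurenine and NAD pathway, which turns tryptophan or salvaged nicotinamide into NAD, Qprt alone passed the adjusted threshold, and 3 had an unadjusted p below 0.05, against 11.3% of all genes. The other members had log2 fold changes from -0.54 to 0.50, with adjusted p of at least 0.276. Of 14 genes of prostaglandin synthesis, transport, breakdown and reception, the carrier Slc22a22 and the receptor gene Ptgfr fell and the efflux pump gene Abcc4 rose, against 0.111% of all genes that fell and 0.188% that rose. Ptgfr and Abcc4, like Slc22a22, belong to the genes that had already passed in the kidney fit. Of the 14, 5 had an unadjusted p below 0.05, against 11.3% of all genes, in a list drawn up around Slc22a22. The rest had log2 fold changes from -0.46 to 0.25, with adjusted p of at least 0.369.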
